A study of Mus musculus with 12 samples.

Results

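Cell cycle and DNA replication genes were measured in the left ventricle of mice with and without ATF6-MER, a drug-inducible form of the endoplasmic reticulum stress factor ATF6. The genes were a fixed list of 39 symbols of the G1 phase, DNA replication and mitosis, and every probe set (the group of short probes that reads a transcript on the array) whose platform annotation gave 1 of these symbols was taken. Of the 39 listed genes, 38 were read by 93 such probe sets, out of 18193 genes and 34945 probe sets with 1 symbol on the array. The remaining listed gene, Ccnb1 (cyclin B1), was not analysed here.

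The study set transgenic (TG) mice carrying ATF6-MER against their non-transgenic (NTG) littermates, and tamoxifen against vehicle. In ATF6-MER a mutated estrogen receptor domain of the mouse holds ATF6 inactive until the domain binds tamoxifen. Each genotype was given either agent, which makes 4 groups of 3 male C57BL/6 mice of about 30 weeks, with 1 whole-genome Affymetrix mouse array per heart. The promoter of the transgene, the cells that express it, and the dose and length of treatment are not stated in the labels.

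The median deposited intensity of the 12 arrays ran from 648 to 834, and Spearman's rho between arrays lay between 0.836 and 0.916. A pair of arrays had conflicting labels: TG vehicle 3 is vehicle in its title and tamoxifen in its treatment field, and TG tamoxifen 1 is given as 40 weeks old. Groups were taken from the titles. The level of Esr1, whose probe set can read the receptor domain of the fusion, was 16.66 to 18.25 on the log2 scale in the TG arrays, 17.72 on the array labelled NTG tamoxifen 1 and 7.15 to 10.88 on the other NTG arrays. Hspa5, the endoplasmic reticulum chaperone BiP and a known target of ATF6, read 18.37 to 18.47 on the TG tamoxifen arrays, 15.76 to 16.39 on TG vehicle, 18.05 on the array labelled NTG tamoxifen 1 and 15.49 to 16.19 on the other NTG arrays. The array labelled NTG tamoxifen 1 thus went against its label, and counts of calls that use the NTG tamoxifen group, with the changes of the genes called there, are given with and without it. The ratio of 3' to 5' beta-actin signal, a sign of RNA quality, ranged over 1.75 to 1.88 in the TG tamoxifen arrays and 1.32 to 1.68 in the TG vehicle arrays, and over 1.78 to 1.97 in NTG tamoxifen and 2.12 to 2.43 in NTG vehicle. Cardiomyocyte markers (9 genes) summed to intensities of 2409910 to 2533030 in TG tamoxifen and 2542840 to 2609010 in TG vehicle. The sums were 2626490 to 2695250 in NTG tamoxifen and 2641790 to 2703270 in NTG vehicle, so the TG tamoxifen arrays were the lowest.

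Cells enter the cycle when D-type cyclins with Cdk4, and then cyclin E with Cdk2, inactivate the retinoblastoma protein and free E2F factors such as E2f1, which switch on the genes of DNA synthesis. The Mcm proteins open the double helix at replication origins, Pcna clamps the polymerases to the template, and mitosis follows under Cdk1, the Aurora kinases and Plk1, with Cdc20 and Ube2c working in the ubiquitin ligase that ends it. Adult cardiomyocytes seldom divide, while the other cells of the ventricle, among them endothelial cells, fibroblasts and leukocytes, can.

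Promoters of these genes are known for E2F sites, for the CHR element read by the MuvB complexes, and for CCAAT boxes bound by NF-Y. The 3 windows printed here belong to members that rose with tamoxifen in TG hearts: Cks1b, first by adjusted p, and Top2a and Mcm5, which held the most CHR and E2F letters among the 6 windows of the members first by adjusted p. Each is RefSeq sequence of the build GRCm38.p6, from 250 bases before to 50 bases after the annotated start, 5' to 3' along the gene. Capitals mark E2F letters (TTGGCGC with its variants TTGCCGC and TTCGCGC and also TTCCCGC), CHR letters (TTTGAA or else TTCGAA) and the word CCAAT, or the reverse complement of any of them. Cks1b lies on the minus strand at chr3:89418242-89418541, Top2a on the minus strand at chr11:99024140-99024439 and Mcm5 on the plus strand at chr8:75109259-75109558.
Cks1b: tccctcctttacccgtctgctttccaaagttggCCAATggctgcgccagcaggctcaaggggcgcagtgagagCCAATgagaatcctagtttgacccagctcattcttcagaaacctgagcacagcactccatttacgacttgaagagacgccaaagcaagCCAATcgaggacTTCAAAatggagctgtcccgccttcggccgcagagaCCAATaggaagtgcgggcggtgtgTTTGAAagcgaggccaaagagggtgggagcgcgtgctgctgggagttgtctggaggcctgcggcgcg
Top2a: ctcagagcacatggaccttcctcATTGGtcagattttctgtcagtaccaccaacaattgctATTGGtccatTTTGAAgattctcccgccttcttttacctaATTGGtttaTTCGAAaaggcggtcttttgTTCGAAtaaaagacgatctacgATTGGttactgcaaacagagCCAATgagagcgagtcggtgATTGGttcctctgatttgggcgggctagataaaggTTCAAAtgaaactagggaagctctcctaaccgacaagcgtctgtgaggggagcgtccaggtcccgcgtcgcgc
Mcm5: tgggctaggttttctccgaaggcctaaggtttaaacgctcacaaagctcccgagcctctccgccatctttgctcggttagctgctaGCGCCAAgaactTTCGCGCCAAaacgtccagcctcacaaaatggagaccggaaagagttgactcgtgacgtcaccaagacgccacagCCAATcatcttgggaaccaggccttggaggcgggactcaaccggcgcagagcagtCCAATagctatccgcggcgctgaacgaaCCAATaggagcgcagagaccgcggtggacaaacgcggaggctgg
The Cks1b window held CCAAT at 4 places and CHR letters at 2, and the Top2a window held CCAAT at 6 and CHR letters at 4. The Mcm5 window held E2F letters at 3 places between -164 and -143 from the start, of which the latter pair overlap, and CCAAT at 3.

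RefSeq windows were matched for 30 of the 38 members by symbol. E2F letters stood in the windows of 9 of these 30 genes (30.0%), against 10.9% of all genes with a window. These were Mki67, Mcm3, Mcm5, Mcm6, Mcm7, Cdk1, Cdk2, Rrm1 and Rrm2. CHR letters stood in 14 of 30 (46.7% against 21.7%) and CCAAT in 23 of 30 (76.7% against 41.1%). The element that ATF6 is known to read with NF-Y, CCAAT followed after 9 free bases by CCACG, stood in 0 of 30 (0.137% of all genes), and the letters TGACGTG stood in the windows of Cdk2 and E2f1 (6.67% against 2.22%). Both strands were searched, the CCAAT of the longer element is also counted as CCAAT, and a match describes letters in a window, not a working site. A window of Mcm7, a window of Ccnd3 and the windows of Aurka and E2f1 lie wholly inside the span RefSeq gives the gene. They lie past its outermost start, so their letters, the TGACGTG of E2f1 among them, are not those upstream of that start. The other windows of Mcm7 and Ccnd3 do not lie wholly inside, and that of Mcm7 also held E2F letters.

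Tamoxifen in TG hearts was followed by higher levels of a subset of the cell cycle genes and by no significant fall among them. The 9 genes that rose span the cycle: E2f1 and Cks1b of the G1-to-S transition, Mcm3 and Mcm5 of the replicative helicase, and Top2a, Hmgb2, Nusap1, Cks2 and Ube2c, which serve chromosome handling and mitosis. In bulk ventricle, more cells of a type and more RNA per cell cannot be told apart. The sizes ran from a log2 change of 0.999 in Mcm3 to 5.31 in Ube2c. Levels are log2(intensity + 16) after quantile normalization, changes are differences of group means on that scale with standard errors (SE) from the fit of 3 arrays per group, and a gene is called at an adjusted p under 0.05 (limma, Benjamini-Hochberg over 18193 genes).

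Of the 38 members 9 were called higher and 0 lower in TG tamoxifen against TG vehicle, where 3.59% of all genes were called higher and 5.23% lower. With median centring of the arrays in place of quantile normalization the members stayed at 9 higher and 0 lower, while the split over all genes turned from 653 higher and 951 lower to 846 and 667. The median change of the members was 0.52, against -0.06 over all genes, and 30 of 38 (78.9%) had a positive change, against 46% of all genes. At an unadjusted p under 0.05 stood 14 members (36.8%), against 25.2% of all genes. The 3 TG tamoxifen arrays lay wholly above the 3 TG vehicle arrays for 14 members and wholly below them for 2, Cdk2 and Ccnd3, where 14.8% of all genes lay above and 17.8% below.

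**Figure D1:**
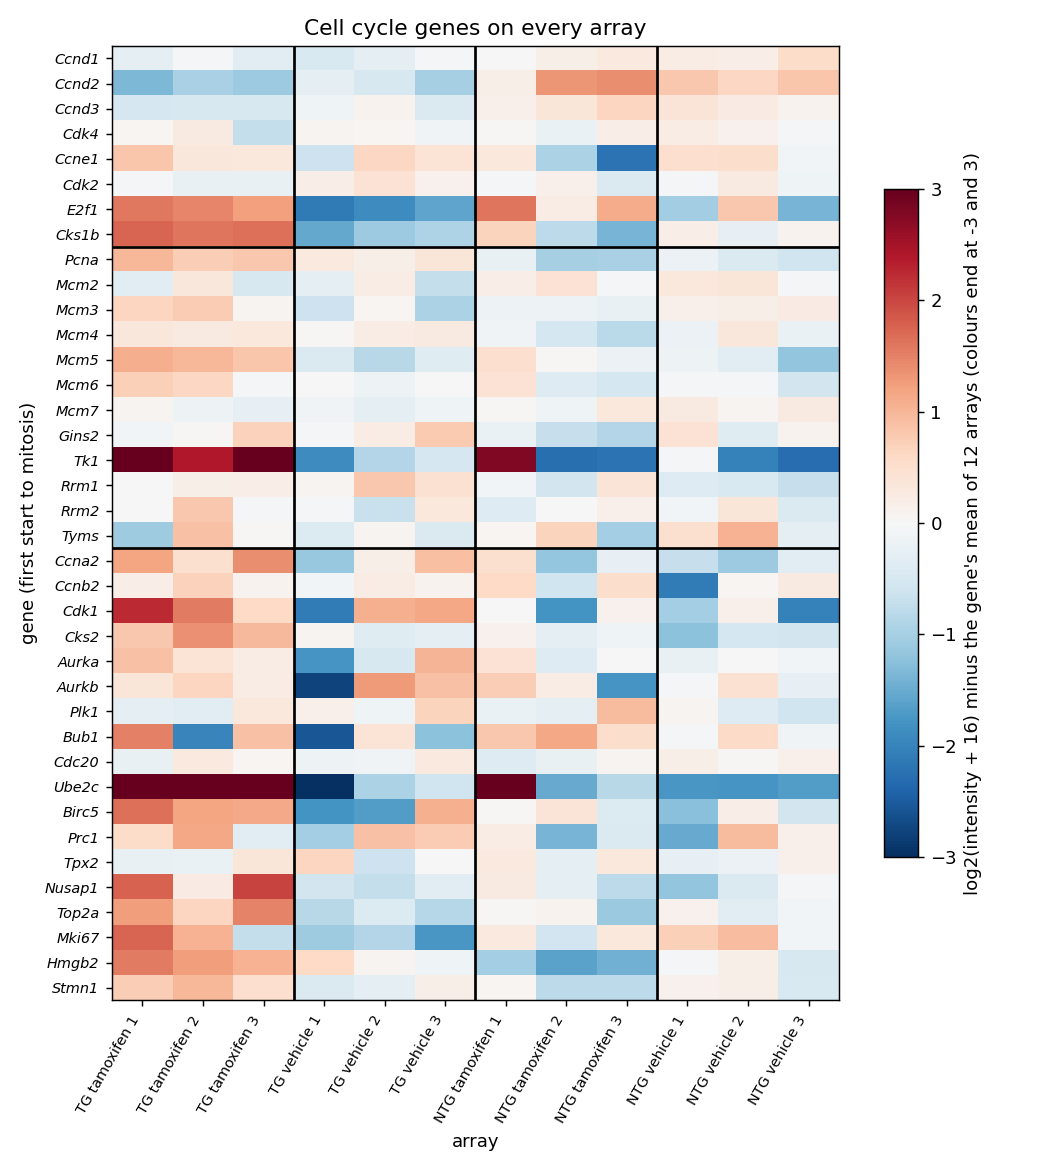
Level of each of the 38 cell cycle genes on each of the 12 arrays (columns, grouped by the labels), as log2(intensity + 16) minus the gene's own mean over the 12 arrays. Rows run from G1 genes through replication to mitosis, and Ube2c, Tk1, Cks1b, E2f1 and Hmgb2 are high in all 3 TG tamoxifen arrays. Ube2c, Tk1 and E2f1 are also high on the array labelled NTG tamoxifen 1, and colours end at -3 and 3. The E2f1 level is 10.93 on that array, 10.44 on NTG tamoxifen 3 and 10.15 on NTG vehicle 2.

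E2f1, the transcription factor that activates S-phase genes, had levels of 10.91, 10.81 and 10.56 in TG tamoxifen and 7.21, 7.44 and 7.76 in TG vehicle. It stood at 10.93, 9.55 and 10.44 in NTG tamoxifen and at 8.30, 10.15 and 7.93 in NTG vehicle. The TG groups lay far apart, while NTG vehicle 2 fell among the NTG tamoxifen arrays. The change with tamoxifen in TG was 3.29 ± 0.53 (SE), 9.78-fold (adjusted p = 0.0109, limma). TG vehicle was the lowest group, 1.32 below NTG vehicle (adjusted p = 0.274, limma), and TG tamoxifen exceeded NTG tamoxifen by 0.45 (adjusted p = 0.618), or by 0.76 without the array labelled NTG tamoxifen 1 (adjusted p = 0.416, limma). Of the 3 E2f1 probe sets the next rose by 2.55 (adjusted p over all probe sets = 0.0857, limma) and the dimmest by 0.06.

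Cks1b encodes a small partner of the cyclin-dependent kinases that helps the Skp2 ubiquitin ligase remove the inhibitor p27. Its levels were 13.83, 13.70 and 13.74 in TG tamoxifen, 10.56, 10.999 and 11.16 in TG vehicle, 12.77, 11.30 and 10.69 in NTG tamoxifen and 12.29, 11.84 and 12.18 in NTG vehicle. TG tamoxifen lay above every other array. The change with tamoxifen in TG was 2.85 ± 0.44 (SE), 7.22-fold (adjusted p = 0.00945, limma), and its other probe set rose by 1.58 (adjusted p over all probe sets = 0.0304, limma). Cks1b was past the threshold in 21 of 24 alternative settings, with changes of 2.21 to 3.04 (adjusted p from 0.000293 to 0.333, limma). Cks2, the related partner of mitotic kinases, had 10.48, 11.04 and 10.65 in TG tamoxifen, 9.75, 9.30 and 9.40 in TG vehicle, 9.80, 9.38 and 9.54 in NTG tamoxifen and 8.44, 9.14 and 9.12 in NTG vehicle. It rose by 1.24 ± 0.25 (SE; adjusted p = 0.0196, limma), and the TG tamoxifen arrays again stood above all others.

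The cyclins and kinases of G1 did not pass the test in this comparison. Ccnd1 changed by 0.05 (95% interval -0.38 to 0.47), Cdk4 by -0.13 (-0.70 to 0.44), Ccne1 by 0.36 (-0.90 to 1.61) and Cdk2 by -0.42 (-0.87 to 0.03). The other, dimmer Ccne1 probe set rose by 1.57 with arrays that did not overlap, and was not called (adjusted p over all probe sets = 0.0986, limma). Ccnd2 and Ccnd3 had values of -0.56 and -0.35, neither called. The intervals for Ccne1 and Ccnd2 leave room for changes of over 1 on the log2 scale, so these arrays do not show that Ccne1 and Ccnd2 held steady.

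**Figure D2:**
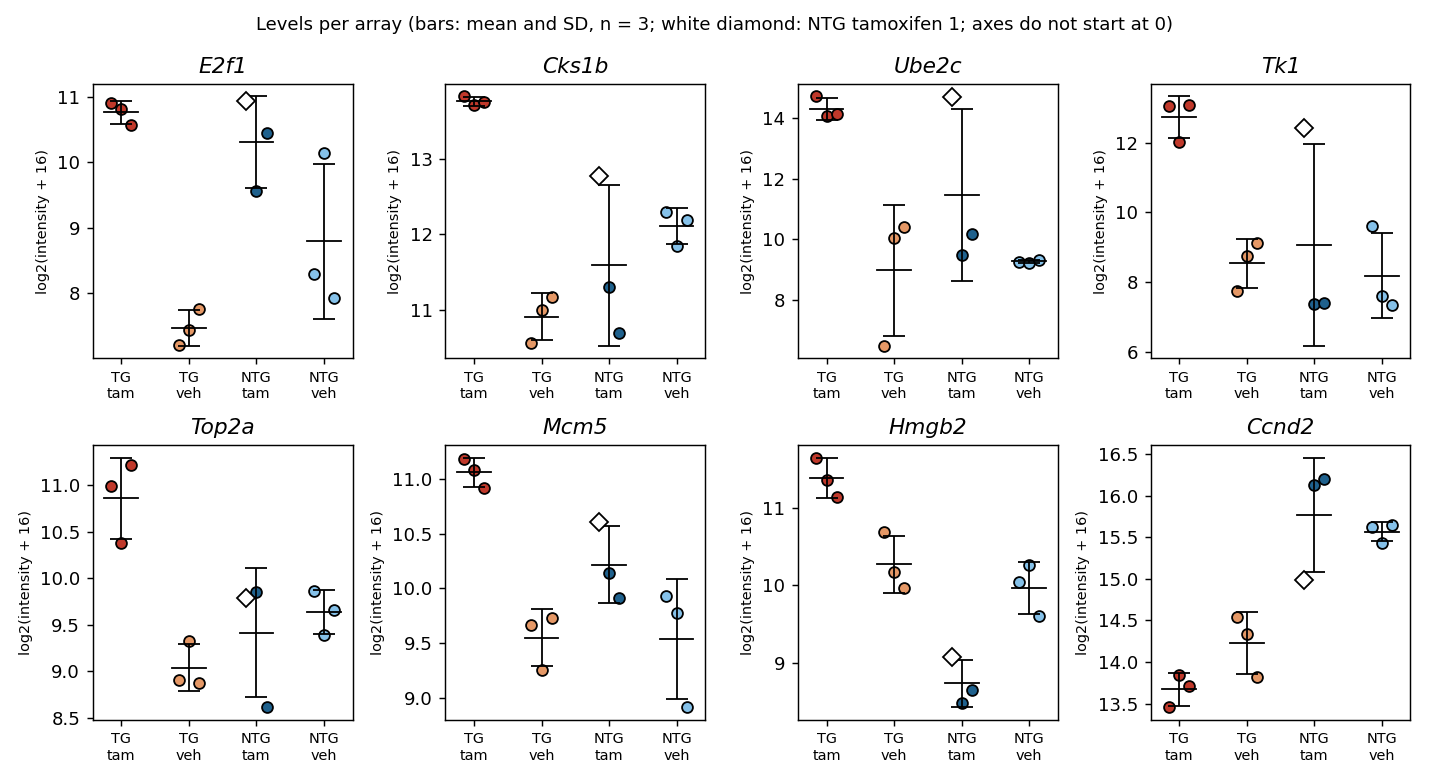
Level per array, as log2(intensity + 16), of 8 of the genes in the 4 groups, with the group mean and SD (n = 3). The white diamond is the array labelled NTG tamoxifen 1, which lies near the TG tamoxifen arrays for E2f1, Ube2c and Tk1, and Ccnd2 is lower in both TG groups than in both NTG groups.

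Among replication genes, Mcm5 and Mcm3, a pair of the 6 subunits of the Mcm2-7 helicase, rose. Mcm5 had levels of 11.18, 11.08 and 10.92 in TG tamoxifen, 9.66, 9.25 and 9.73 in TG vehicle, 10.60, 10.14 and 9.91 in NTG tamoxifen and 9.93, 9.78 and 8.92 in NTG vehicle. TG tamoxifen lay above all other arrays, and the change in TG was 1.51 ± 0.29 (SE), 2.85-fold (adjusted p = 0.0172, limma). Its other probe sets gave -0.26 and 1.01, so the rise of Mcm5 rests on 1 probe set of 3, of a type that the platform marks as possibly matching other transcripts. Mcm3 had 10.77, 10.87 and 10.19 in TG tamoxifen, 9.49, 10.18 and 9.16 in TG vehicle, 9.97, 9.96 and 9.89 in NTG tamoxifen and 10.27, 10.28 and 10.37 in NTG vehicle. The lowest TG tamoxifen array and the highest TG vehicle array nearly met, and the change of 0.999 ± 0.27 (SE; adjusted p = 0.0479, limma) was past the threshold in 6 of 24 alternative settings (adjusted p from 0.0159 to 0.69). The other Mcm3 probe sets gave -0.31, 1.79, 1.09 and 1.03, none called. The other 4 subunits had changes of 0.09 (Mcm2), 0.13 (Mcm4), 0.48 (Mcm6) and 0.07 (Mcm7), none called.

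Tk1, thymidine kinase of S phase, had levels of 13.06, 12.03 and 13.09 in TG tamoxifen and 7.75, 8.75 and 9.11 in TG vehicle. In NTG tamoxifen it stood at 12.41, 7.37 and 7.41, and in NTG vehicle at 9.60, 7.60 and 7.35. The array labelled NTG tamoxifen 1 had the TG tamoxifen level and its 2 fellows did not. The difference of 4.19 ± 1.20 (SE) in TG just missed the threshold (adjusted p = 0.0582, limma), and passed it without that array (adjusted p = 0.00391; 0.00391 to 0.365 over the alternatives). Pcna had 14.98, 14.72 and 14.78 in TG tamoxifen against 14.28, 14.16 and 14.35 in TG vehicle, arrays that do not overlap, with a change of 0.56 that was not called (adjusted p = 0.164, limma). Rrm1 and Rrm2, the subunits of ribonucleotide reductase, had -0.33 and 0.39, Tyms, thymidylate synthase, 0.21, and Gins2, part of the replicative helicase, -0.11, none called.

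Ube2c, the ubiquitin-conjugating enzyme of the anaphase-promoting complex, gave the highest change of all members. Its levels were 14.72, 14.05 and 14.12 in TG tamoxifen, 6.50, 10.06 and 10.40 in TG vehicle, 14.71, 9.49 and 10.17 in NTG tamoxifen and 9.27, 9.23 and 9.33 in NTG vehicle. The arrays fell at either 14.05 or more (TG tamoxifen and the array labelled NTG tamoxifen 1) or 10.40 or less (all others). The change in TG was 5.31 ± 1.31 (SE; adjusted p = 0.0363, limma), a fold of 39.8 with a 95% interval of 2.39 to 8.23 on the log2 scale, and TG vehicle 1 was the lowest of all arrays. Without TG vehicle 1 the change was 4.07 (adjusted p = 0.0796, limma). It was past the threshold in 11 of 24 alternative settings (adjusted p from 0.0059 to 0.33).

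Among genes of chromosome structure and the spindle, Top2a and Nusap1 rose. Top2a, the topoisomerase that untangles sister chromatids, had levels of 10.99, 10.38 and 11.22 in TG tamoxifen, 8.91, 9.33 and 8.87 in TG vehicle, 9.78, 9.85 and 8.62 in NTG tamoxifen and 9.86, 9.39 and 9.66 in NTG vehicle. TG tamoxifen lay above all other arrays and TG vehicle below all NTG vehicle arrays. The change in TG was 1.82 ± 0.35 (SE), 3.54-fold (adjusted p = 0.0171, limma), while its other, dimmer probe sets gave 0.30 and -0.23. Nusap1, a spindle microtubule protein, had 11.63, 10.11 and 11.90 in TG tamoxifen, 9.31, 9.15 and 9.52 in TG vehicle, 10.13, 9.57 and 9.08 in NTG tamoxifen and 8.68, 9.42 and 9.83 in NTG vehicle. It rose by 1.89 ± 0.48 (SE; adjusted p = 0.0389, limma), with TG tamoxifen 2 well below its fellows. Nusap1 was past the threshold in 10 of 24 alternative settings (adjusted p from 0.0122 to 0.454, limma). Its other, dimmer probe set gave 1.16, not called (adjusted p over all probe sets = 0.585, limma).

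Hmgb2, a DNA-bending chromatin protein abundant in dividing cells, had levels of 11.65, 11.36 and 11.14 in TG tamoxifen, 10.68, 10.17 and 9.97 in TG vehicle, 9.08, 8.48 and 8.65 in NTG tamoxifen and 10.04, 10.26 and 9.61 in NTG vehicle. The 4 groups fell in an order with NTG tamoxifen lowest, below all NTG vehicle arrays, and TG tamoxifen highest. It rose by 1.11 ± 0.27 (SE) in TG (adjusted p = 0.0343, limma), and a second probe set rose by 1.88 (adjusted p over all probe sets = 0.0463, limma).

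Just short of the threshold in TG stood Mki67, the gene of the Ki-67 proliferation antigen, with 10.64, 9.92 and 8.18 against 7.84, 8.004 and 7.15 (change 1.92, adjusted p = 0.0668, limma). Stmn1, a microtubule-destabilising protein, had 12.76, 13.01 and 12.52 against 11.59, 11.74 and 12.19 (change 0.92, adjusted p = 0.0813, limma). Birc5, survivin, had 10.28, 9.80 and 9.77 against 6.83, 6.95 and 9.70 (change 2.12, adjusted p = 0.0831, limma). In all 3 the TG groups did not overlap, but for Birc5 only by the margin between 9.70 and 9.77. The mitotic kinases and their partners had wide spreads: Cdk1 changed by 1.43, Bub1 by 1.27, Ccna2 by 1.05, Aurka by 0.92, Aurkb by 0.61 and Ccnb2 by 0.26, none called. Plk1 (-0.32), Cdc20 (0.02), Tpx2 (-0.02) and Prc1 (0.25) were not called either.

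The count of called members in TG changed with the arrays used and with the actin ratio as a covariate. It fell to 0 with the actin ratio as a covariate, when 0 of 18193 genes were called and 10 members had an unadjusted p under 0.05, with changes of 2.94 in Cks1b and 3.04 in E2f1. The actin ratios of TG tamoxifen and TG vehicle did not overlap, so that fit can hardly tell the ratio and tamoxifen apart. It also fell to 0 with TG vehicle 3 grouped as its treatment field has it, and to 0 without both arrays of conflicting label, when Cks1b still showed a change of 2.92 and E2f1 of 3.36. Of all 18193 genes, 0 were called higher and 0 lower in the former setting, and 0 and 1 in the latter. It was 2 (Cks1b and E2f1) without TG tamoxifen 1, 4 without TG tamoxifen 2, TG tamoxifen 3, TG vehicle 2 or TG vehicle 3, 6 without TG vehicle 1 or any of the NTG vehicle arrays, and 11 without the array labelled NTG tamoxifen 1. The share of all genes called higher, 3.59% with all arrays, moved too. It was 0.341% without TG tamoxifen 1, 0.912% without TG tamoxifen 2 or 3, and 1% and 1.45% without TG vehicle 2 and 3. Without TG vehicle 1 it was 3.3%, without any NTG vehicle array 2.22% to 2.33%, and without the array labelled NTG tamoxifen 1 5.29%.

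**Figure D3:**
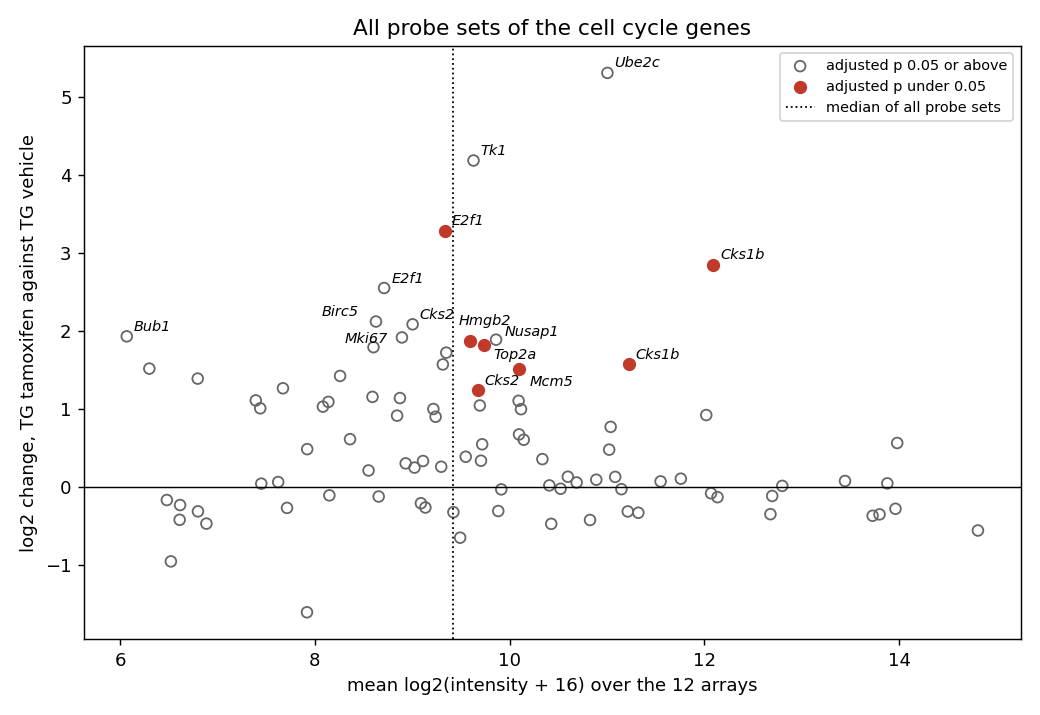
Log2 change in TG tamoxifen against TG vehicle for all 93 probe sets of the cell cycle genes, against their mean log2(intensity + 16) over the 12 arrays. Filled points passed an adjusted p under 0.05 over all probe sets, named points include these and the changes beyond 1.8, and the dotted line is the median of all probe sets on the array.

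When every probe set was tested on its own, 7 of the 93 were called higher, for 6 genes, and 0 lower, where 1.41% of all probe sets were called higher and 1.7% lower. The 7 were both probe sets of Cks1b and 1 each of E2f1, Top2a, Mcm5, Cks2 and Hmgb2. The median change of the 93 was 0.33, against -0.02 over all probe sets. The Ube2c probe set had an adjusted p of 0.0576 in this fit (limma). Of the 93, 49 lay above the median probe set of the array.

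Part of the macrophage and myeloid markers was higher in the same arrays. Of the 10 genes of that list, 4 (Ptprc, Itgam, Aif1 and Ccr2, named after their values were seen) were called higher in TG tamoxifen against TG vehicle, and the summed intensity of the 10 was 107795 to 162899 on the TG tamoxifen arrays, 59624 to 111559 on the TG vehicle arrays, 50089 to 50808.5 in NTG tamoxifen and 58706 to 65830 in NTG vehicle, so that the TG groups overlapped in the sum. Of 7 endothelial markers 2 (Kdr and Tie1, likewise) were called lower, with sums of 35003 to 38125 in TG tamoxifen against 45635 to 53732 in TG vehicle. Of 3 adipocyte markers 1 (Cidea, likewise) was called lower (-1.30, adjusted p = 0.0275, limma), with sums of 5449 to 6182 in TG tamoxifen against 10019 to 15865 in TG vehicle. Of B cell markers 0 of 4 were called (limma), with a median change of -1.23, 3 at an unadjusted p under 0.05, all lower, and sums of 1500 to 3367 against 4786 to 5616. Of fibroblast markers 0 of 8 were called (limma), with 3 at an unadjusted p under 0.05, Col3a1 higher and Dcn and Tcf21 lower, and sums of 204699 to 234222 against 235722 to 272118. Of T and NK cell and of neutrophil markers 0 of 7 and 0 of 5 were called (limma), with 0 at an unadjusted p under 0.05, and no marker can be listed at 0, as the lowest deposited intensity was 1.021. In TG tamoxifen against TG vehicle 3.59% of all genes were called higher and 5.23% lower, and 25.2% had an unadjusted p under 0.05. The part of the cells behind these markers in the cell cycle result was not tested.

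In NTG hearts, none of the 38 members passed the threshold with tamoxifen. By limma 0 of 38 members were called in either direction, where 0.011% of all genes were called higher and 0.011% lower (2 each, and 8 and 164 with median centring), with 5 members at an unadjusted p under 0.05 (13.2%, against 16% of all genes). The median change was -0.03, against 0.00. Arrays did not overlap for 2 members that were higher (Cks2 and Ube2c) and 2 that were lower (Hmgb2 and Mcm3), where 10.6% of all genes were higher and 12.7% lower. The 5 with the smaller p were Hmgb2 (-1.23, adjusted p = 0.0829, limma), Cks2 (0.67), E2f1 (1.52), Mcm5 (0.68) and Ccne1 (-1.27). Their other probe sets gave 0.48 and -0.47 (Hmgb2), -0.16 (Cks2), 2.40 and 0.88 (E2f1), 0.91 and -0.82 (Mcm5) and 0.80 (Ccne1). Without the array labelled NTG tamoxifen 1, the Ube2c change fell from 2.18 to 0.55 and still 0 members were called, with 8 at an unadjusted p under 0.05. Atrial markers (3 genes) summed to 2133 to 77460 in NTG tamoxifen, with the lowest sum on the array labelled NTG tamoxifen 1. In NTG vehicle they summed to 3173 to 9992, and their part in these values was not tested.

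**Figure D4:**
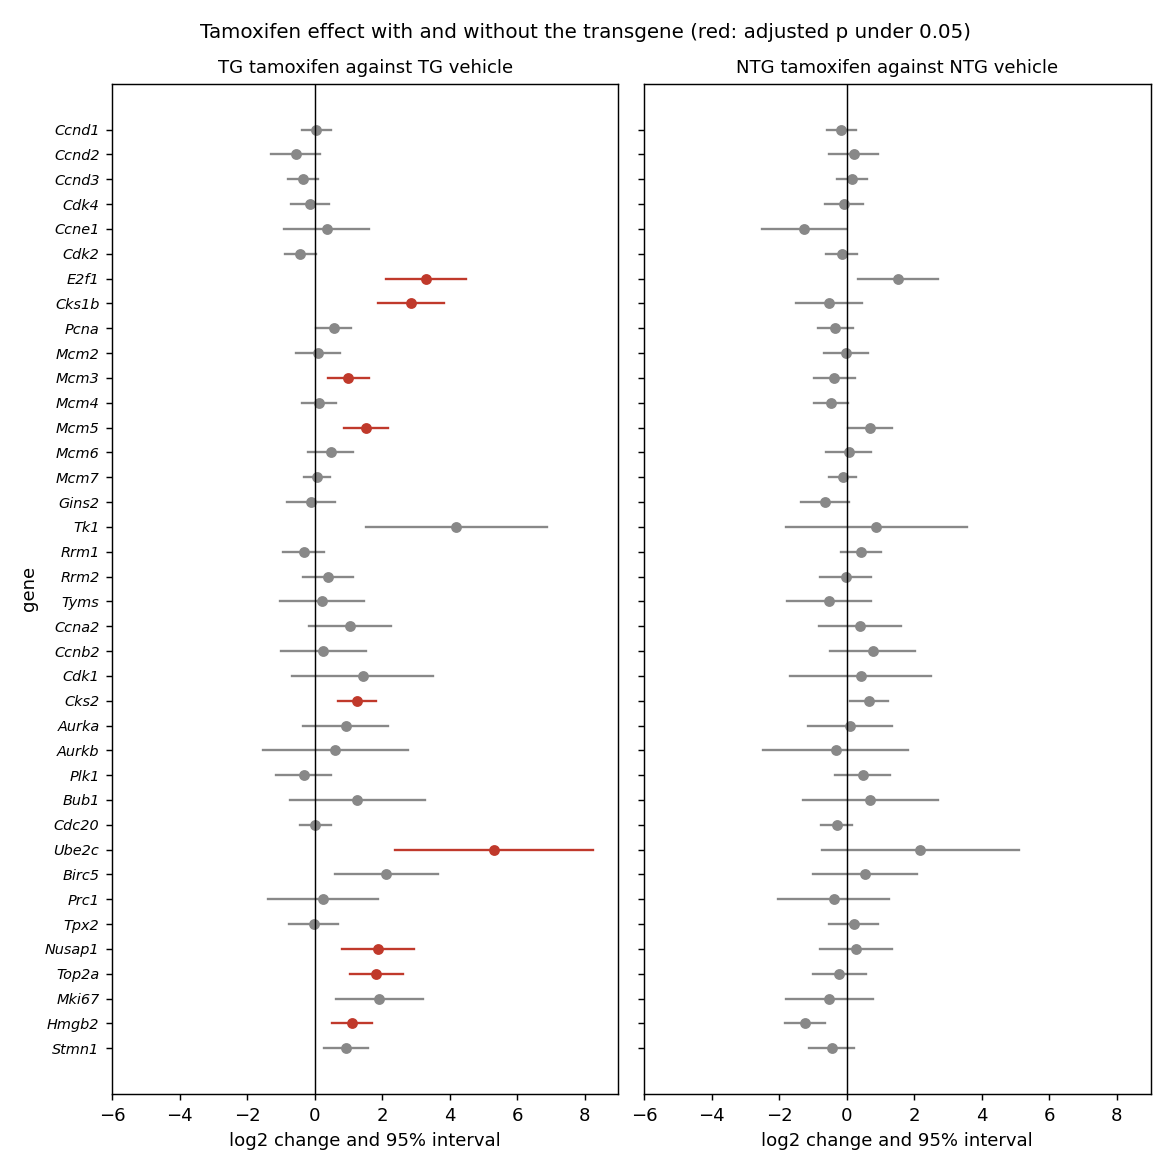
Log2 change and its 95% interval for each of the 38 genes with tamoxifen in TG hearts (left) and in NTG hearts (right), with the genes called at an adjusted p under 0.05 in red. The 9 called genes lie on the left, all above 0, and none is called on the right, where Hmgb2 lies lowest among the narrow intervals.

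The array labelled NTG tamoxifen 1 stood more than 1 log2 unit above both other NTG tamoxifen arrays for 4 of 38 members (10.5%), against 5.83% of all 18193 genes. These were Ube2c (14.71 against 9.49 and 10.17), Tk1 (12.41 against 7.37 and 7.41), Cks1b (12.77 against 11.30 and 10.69) and Ccne1 (10.66 against 9.39 and 8.12). The other Cks1b probe set had 11.46 against 10.66 and 10.57. The other Ccne1 probe set had 8.58 against 8.29 and 10.34, so it did not stand above both.

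The transgene without the drug moved no member past the threshold. In TG vehicle against NTG vehicle 0 of 38 were called (limma), where 0.0055% of all genes were called higher and 0.0385% lower, with 9 at an unadjusted p under 0.05 (23.7%, against 15.6%). The median change was -0.10, against 0.03 over all genes. Ccnd2, the D-type cyclin, came nearest, with 14.54, 14.33 and 13.82 in TG vehicle against 15.62, 15.43 and 15.65 in NTG vehicle, arrays that do not overlap (change -1.34 ± 0.33, adjusted p = 0.115, limma). E2f1 (-1.32), Cks1b (-1.20), Mki67 (-1.76), Mcm3 (-0.70) and Ccnd1 (-0.58) were also lower in TG vehicle without passing the test, and Rrm1 (0.97), Pcna (0.68) and Cks2 (0.58) were higher. The mean of TG vehicle, from which the changes within TG are counted, thus lay below that of NTG vehicle for Cks1b, E2f1, Mki67 and Mcm3.

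Between TG tamoxifen and NTG tamoxifen 8 members were called higher and 2 lower, where 9.88% of all genes were called higher and 10.3% lower. Median centring gave 9 higher and 2 lower members and turned the split over all genes from 1797 higher and 1875 lower to 2132 and 1348. The median change of the members was 0.67, against -0.04, and 16 members (42.1%, against 32.4% of all genes) had an unadjusted p under 0.05. This comparison shares the TG tamoxifen arrays with the one within TG, so its calls are not a second set of samples. Hmgb2 differed by 2.64 ± 0.27 (SE; adjusted p = 0.00154), Cks1b by 2.17 ± 0.44 (0.00788), Cks2 by 1.15 ± 0.25 (0.0116), Top2a by 1.44 ± 0.35 (0.0178) and Nusap1 by 1.62 ± 0.48 (0.0391), all by limma. Without the array labelled NTG tamoxifen 1 the differences were 2.82 for Hmgb2, 2.77 for Cks1b, 1.27 for Cks2, 1.63 for Top2a and 1.89 for Nusap1.

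Pcna, Stmn1 and Mcm4 were called here and not in the comparison within TG. Pcna, the clamp of the replicative polymerases, had 14.98, 14.72 and 14.78 in TG tamoxifen and 14.28, 14.16 and 14.35 in TG vehicle, against 13.76, 12.99 and 13.00 in NTG tamoxifen and 13.82, 13.55 and 13.39 in NTG vehicle. Every TG array lay above every NTG array, and TG tamoxifen exceeded NTG tamoxifen by 1.58 ± 0.23 (SE; adjusted p = 0.00279, limma). Stmn1 had 12.07, 11.24 and 11.23 in NTG tamoxifen and 12.14, 12.19 and 11.56 in NTG vehicle, and differed between the tamoxifen groups by 1.25 ± 0.30 (SE; adjusted p = 0.0159, limma). Mcm4 had 11.42, 11.36 and 11.39 in TG tamoxifen, 11.11, 11.31 and 11.36 in TG vehicle, 10.99, 10.56 and 10.27 in NTG tamoxifen and 10.91, 11.43 and 10.89 in NTG vehicle, a difference of 0.78 ± 0.23 (SE; adjusted p = 0.0359, limma). Its other probe set showed 1.86 (adjusted p over all probe sets = 0.00406, limma). Without the array labelled NTG tamoxifen 1 the differences were 1.83 for Pcna, 1.53 for Stmn1 and 0.98 for Mcm4.

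Ccnd2 and Ccnd3, D-type cyclins that start the G1 phase with Cdk4, were the 2 members called lower in TG. Ccnd1, also a D-type cyclin, differed by -0.37 with arrays that did not overlap, and was not called (adjusted p = 0.216, limma). Its other probe sets gave -0.87 (adjusted p over all probe sets = 0.0227, limma) and -0.10. Ccnd2 had levels of 13.46, 13.85 and 13.72 in TG tamoxifen, 14.54, 14.33 and 13.82 in TG vehicle, 14.98, 16.13 and 16.20 in NTG tamoxifen and 15.62, 15.43 and 15.65 in NTG vehicle. Every TG array lay below every NTG array, and the array labelled NTG tamoxifen 1 was the lowest of the NTG arrays. TG tamoxifen was 2.10 ± 0.33 (SE) below NTG tamoxifen, 4.28-fold (adjusted p = 0.0032, limma), and 6 of its 7 probe sets were lower, by 0.91 to 2.10, with the dimmest at 0.68. Ccnd3 had 12.17, 12.20 and 12.19 in TG tamoxifen, 12.56, 12.79 and 12.26 in TG vehicle, 12.84, 13.04 and 13.33 in NTG tamoxifen and 13.06, 12.94 and 12.77 in NTG vehicle, a log2 difference of -0.89 ± 0.20 (SE; adjusted p = 0.0123, limma). Ccnd2, Ccnd3, Hmgb2 and Pcna were called in this comparison under all 24 alternatives run, and without the array labelled NTG tamoxifen 1 the count was 13 higher and 2 lower, with Ube2c, Tk1, Mcm5, Mcm6 and Ccne1 added, where 11.2% of all genes were called higher and 11.1% lower. Ccnd2 then differed by -2.49 and Ccnd3 by -1.01. With all arrays in, the other Ccne1 probe set was higher in TG by 1.67 (adjusted p over all probe sets = 0.0413, limma).

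The tamoxifen effect in TG exceeded that in NTG for 2 members. In the test of this difference 2 of 38 were called higher and 0 lower, where 1.24% of all genes were called higher and 0.742% lower, and 9 had an unadjusted p under 0.05 (23.7%, against 21.6% of all genes). Median centring left the 2 members called and moved the split over all genes from 226 higher and 135 lower to 558 and 79. Cks1b had 2.85 in TG and -0.52 in NTG, a difference of 3.37 ± 0.62 (SE; adjusted p = 0.0433, limma). Hmgb2 had 1.11 and -1.23, a difference of 2.34 ± 0.38 (SE; adjusted p = 0.0421, limma). Top2a came next (2.04, adjusted p = 0.0621), then Mcm3 (1.37, adjusted p = 0.0822) and Stmn1 (1.37, adjusted p = 0.101). For E2f1 (1.77, adjusted p = 0.209) and Ube2c (3.14, adjusted p = 0.367) the effects in TG and NTG were not shown to differ. All these values are those of the brightest probe sets. The other Cks1b probe set changed by 1.58 in TG and by 0.07 in NTG. The other Hmgb2 probe sets changed by 1.88 and 0.33 in TG, and by 0.48 and -0.47 in NTG. Without the array labelled NTG tamoxifen 1 the count was 6 higher, where 4.26% of all genes were called higher, with Tk1, Top2a, Pcna and Stmn1 added, and Cks1b differed by 3.97 and Hmgb2 by 2.52. The count stayed at 2 without TG vehicle 1, and it was 0 without any 1 of the other arrays. Over all genes 547 were called higher and 367 lower without TG vehicle 1. Without any 1 of the other arrays at most 13 were higher and at most 4 lower.

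Other cell cycle genes were read from 6 lists that hold no member, to be set against the 3.59% and 5.23% of all genes called in TG tamoxifen against TG vehicle. Of 43 genes of replication origins and forks 1 was called higher in TG tamoxifen against TG vehicle and 0 lower, with a median change of 0.17. The gene was Orc2, of the origin recognition complex (1.08 ± 0.23 SE, adjusted p = 0.0214, limma). Of 64 genes of mitosis 2 were higher and 1 lower (median 0.37): Mad2l1, of the spindle checkpoint (1.38 ± 0.36 SE, adjusted p = 0.0427, limma), Anapc10 (1.21) and Anapc13 (-0.62), both of the anaphase-promoting complex. Of 30 genes of the E2F, Rb and MuvB group 1 rose and 1 fell (median 0.14): Myc, the growth-promoting transcription factor, from 5.49, 8.91 and 7.42 to 12.45, 11.92 and 11.99 (4.84 ± 1.03 SE, adjusted p = 0.0231, limma), and E2f6, an E2F repressor (-1.04).

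The brakes of the cycle moved both ways. Of 21 genes 4 were called higher and 3 lower (median 0.08). Higher were Cdkn2b, an inhibitor of Cdk4 (3.12 ± 0.65 SE, adjusted p = 0.0207, limma), Btg2 (1.28) and Tob1 (0.95), antiproliferative proteins of 1 family, and Meis1 (0.93), a homeobox factor known to hold back the cardiomyocyte cycle. Lower were Gas1 (-1.32), Tob2 (-0.95) and Cdkn2c (-0.82), another inhibitor of Cdk4. Of 16 p53 targets 3 rose and 0 fell (median 0.61): Aen (1.29), a nuclease, Eda2r (2.79), a death receptor relative, and Trp53inp1 (0.76). Of 24 genes of nucleotide supply and replication histones 1 rose, Mthfd2, a mitochondrial folate enzyme (4.34 ± 0.60 SE, adjusted p = 0.00945, limma), with a median of -0.05.

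Across these 6 lists limma called 0 of 198 genes with tamoxifen in NTG and 0 in TG vehicle against NTG vehicle. At an unadjusted p under 0.05 stood 32 and 23 of the 198, where 16% and 15.6% of all genes did. Between TG and NTG on tamoxifen, where 9.88% of all genes were called higher and 10.3% lower, the counts were 6 higher and 0 lower of 43 for origins and forks (Orc4 at 1.44 and Orc5 at 1.53 first by adjusted p) and 9 and 0 of 64 for mitosis (Anapc10 at 1.45 and Mad2l1 at 1.74). They were 6 and 2 of 30 for the E2F group (Cdk7 at 1.01 and Lin37 at -0.84) and 2 and 2 of 21 for the brakes (Tob2 at -1.47 and Meis1 at 0.88). They were 6 and 1 of 16 for p53 targets (Aen at 1.15 and Gadd45a at 1.71) and 7 and 1 of 24 for nucleotide supply and histones (Dck at 1.798 and Mthfd2 at 2.53). The tamoxifen effects in TG and NTG differed for Orc5 (1.70), Timeless (2.52), a replication fork protein, and Aen (1.28), where 1.24% of all genes were called higher and 0.742% lower.

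Without the array labelled NTG tamoxifen 1, an alternative chosen after seeing the data, 11.2% of all genes were called higher and 11.1% lower between TG and NTG on tamoxifen. The counts were then 8 higher and 1 lower for origins and forks, 14 and 0 for mitosis, 6 and 2 for the E2F group, 4 and 5 for the brakes, 7 and 1 for p53 targets and 8 and 1 for nucleotide supply and histones. The genes named were called there too, with values from -1.65 in Tob2 and -0.88 in Lin37 to 2.15 in Dck and 3.39 in Mthfd2. The differences between tamoxifen effects were then 1.98 for Orc5, 2.73 for Timeless and 1.40 for Aen, and 13 genes of the 6 lists were called higher and 3 lower, where 4.26% of all genes were called higher and 3.36% lower. Within TG 18 of the 198 genes were called higher and 8 lower, in place of 12 and 5, where 5.29% and 6.76% of all genes were. With tamoxifen in NTG 0 were higher and 1 was lower, where 0.0055% and 0.044% of all genes were.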

How the data were processed

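RNA of 12 left ventricles, 3 separate hearts per group by the study's design, was read on 1 Affymetrix array each. The values the authors deposited are probe set intensities on a linear scale (1.021 to 537040). Their 2% trimmed mean was 2500.02 on every array, so they had been scaled per array, and the summarisation software is not given in the sources used here. Precision is limited by how many arrays there are.

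Intensities were taken as log2(value + 16). Array medians spanned 0.355 on that scale, over the limit of 0.2 set for keeping the deposited scaling, so arrays were quantile normalized. Of 45101 probe sets, 64 were controls, 34945 had 1 symbol in the platform annotation, 932 several and 9160 none. For each of 18193 genes its brightest probe set by the mean of the 12 arrays was taken, with no filter on dim genes. Probe sets that may match several transcripts stood for Mcm2, Mcm3, Mcm5, Mcm7, Cdk4, Ccne1, Aurkb, Rrm2, Gins2, Prc1, Cks2, Hmgb2 and Stmn1. Symbols were checked against a RefSeq gene table, which changed 0 of them, and 204 probe sets had no entry there.

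The 4 group means were fitted in 1 model (lmFit and eBayes of limma 3.58.1, run under R 4.3.3, 2-sided, 8 residual and 2.05 prior degrees of freedom), adjusted by Benjamini-Hochberg over all genes, with a threshold of 0.05. A second fit took all 45037 probe sets that are not controls. Intervals are at 95%. The scripts were tested on simulated data.

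The members, the other gene lists and the tests were chosen with earlier results of these data known. Every member past the threshold in any comparison was to be named with the value of each array, the others by their change or range, and from the other lists up to 5 genes per direction within TG and up to 2 per list elsewhere. Promoter windows were searched in a RefSeq table with 32851 windows, and 3 of the 6 first by adjusted p were printed, a choice made after seeing them. Alternatives were a filter on dim genes, other scalings and pseudocounts, the mean of a gene's probe sets, limma-trend, the actin ratio as a covariate, a replicate block, both readings of the conflicting labels, leaving out each array and fitting only the arrays compared.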

Additional observations from a re-analysis of the deposited data

Results flagged for a closer look

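The tamoxifen effect differed between TG and NTG hearts, by a test of the difference itself, for Cks1b (3.37 on the log2 scale) and Hmgb2 (2.34). Both were read on the brightest probe set, and the other Cks1b probe set had 1.58 in TG and 0.07 in NTG. The NTG fall of Hmgb2 (-1.23) was not shared by its second probe set, which had 1.88 in TG and 0.48 in NTG. Its dimmest had 0.33 in TG and -0.47 in NTG. Mcm3 moved in opposite directions in the 2 genotypes with no overlap between arrays: all 3 TG tamoxifen arrays lay above TG vehicle and all 3 NTG tamoxifen arrays below NTG vehicle. Its difference was 1.37, and the test of that difference did not pass the threshold (adjusted p = 0.0822, limma, from 0.0285 to 0.69 over the alternatives). These Mcm3 values are those of its brightest probe set. Its other probe sets had -0.31, 1.79, 1.09 and 1.03 in TG and, in the same order, -0.07, -0.29, -0.70 and 0.21 in NTG. The NTG tamoxifen group behind all 3 differences holds the array that went against its label, and without it they were 3.97 (Cks1b), 2.52 (Hmgb2) and 1.39 (Mcm3).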

How the results depend on the processing

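The direction of each of the 21 changes reported for called members held under every alternative run: 351 of the alternative values stayed on the same side of the threshold and 150 fell short of it. In TG tamoxifen against TG vehicle the count of called members (9) was 0 with the actin ratio as a covariate, 0 with TG vehicle 3 grouped as TG tamoxifen, 0 without both arrays with conflicting labels, and 2 to 11 when arrays were left out in turn. In NTG tamoxifen against NTG vehicle the filter on dim genes gave 1 (Hmgb2, lower) in place of 0. Over all genes that setting called 76 higher and 412 lower. In TG vehicle against NTG vehicle the filter and limma-trend each gave 1 (Ccnd2, lower). Over all genes the filter called 155 higher and 250 lower, and limma-trend 175 and 293. In TG tamoxifen against NTG tamoxifen the count of 10 became 6 without both conflicting arrays and 6 with only the arrays compared. Over all genes the 1797 higher and 1875 lower became 907 and 1009 in the former setting, and 1015 and 978 in the latter. The count of 2 for the difference between tamoxifen effects became 5 with the filter, 4 with limma-trend, 0 with the mean of the probe sets, the actin covariate, TG vehicle 3 regrouped or both conflicting arrays left out, and 0 to 6 when arrays were left out in turn. Over all genes the 226 higher and 135 lower became 838 and 755 with the filter, and 782 and 739 with limma-trend. The mean of the probe sets gave 31 and 9. The actin covariate, TG vehicle 3 regrouped and both conflicting arrays left out each gave 0 and 0. With arrays left out in turn, 0 to 775 were higher and 0 to 612 lower. Of the probe sets, 7 by the fit reported, 13 were called with the filter, 14 with limma-trend, 4 with only the arrays compared, 0 with the actin covariate, with TG vehicle 3 regrouped or without both conflicting arrays, and 0 to 12 when arrays were left out in turn. Calls over all probe sets were not counted under these settings. Over all genes, the filter gave 1166 higher and 1608 lower of 11165 tested in TG tamoxifen against TG vehicle, limma-trend 1108 and 1524, the mean of the probe sets 460 and 635, only the arrays compared 431 and 470, and the actin covariate 0 and 0. In the same comparison TG vehicle 3 regrouped gave 0 and 0, and both conflicting arrays left out 0 and 1. With arrays left out in turn, 62 to 962 genes were higher and 189 to 1229 lower. The cause of these shifts was not tested. Fewer genes were tested under the filter, and fewer arrays were fitted where some were left out.

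Same-numbered arrays did not deviate together (correlations of -0.02 to 0.03 over 18 pairs, and of -0.03 to 0.03 over 36 pairs of other numbers). Such correlations over all genes cannot exclude that the numbers pair the mice, and no pairing was used in the fit reported. With the replicate block the count was 6 members within TG (385 genes higher and 610 lower over all). It was 8 between TG and NTG on tamoxifen (1545 and 1586) and 0 for the difference between tamoxifen effects (0 and 0). Of the probe sets 2 were called.

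The median change of all genes moved by over 0.1 with scaling in 3 comparisons: median centring took NTG tamoxifen against NTG vehicle from 0.00 to -0.11 and the difference between effects from -0.07 to 0.10, and the deposited scaling took TG tamoxifen against NTG tamoxifen from -0.04 to -0.16. Of the 38 members 12 were read below the median probe set of the array.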
